A study of Mus musculus with 10 samples.

Results

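TRBV19 receptors are T cell receptor (TCR) beta chains built on the V gene TRBV19, called Vbeta6 in the older nomenclature. They were taken here as every clonotype entry named TRBV19 whose CDR3, the loop encoded where V, D and J segments join, ended in residues that a beta chain J gene encodes. This held for 13849 of the 13999 entries named TRBV19. The 13849 made up 7.18% of the 193012 beta chain (TRB) entries among 387286 entries of both chains. The study sequenced TCR transcripts of regulatory T (Treg) cells from the mouse spleen in 5 libraries of strain CNS4KO, mice deficient in the Foxp3 enhancer CNS4, and 5 libraries of strain CNS4Flox, mice that carry the enhancer floxed. Foxp3 encodes the transcription factor that defines Treg cells, and repertoire diversity is the stated purpose of the sequencing. The cells were untreated and were used for RNA directly after isolation. The sources used here give neither age, genetic background, the Cre line or other means by which CNS4 was lost, the number of cells, nor whether libraries came from separate mice. All p-values therefore measure the spread between libraries, which may be technical. In the treatment label the groups are called KO and WT. The tables hold receptor sequences alone, so neither the deletion of CNS4 nor the Treg identity of the cells could be checked in them.

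A beta chain gene is assembled in the thymus by joining 1 V, 1 D and 1 J segment. Bases are trimmed from the segment ends and untemplated bases are inserted by terminal deoxynucleotidyl transferase, so most of the diversity lies in the CDR3, which contacts the peptide bound to an MHC molecule. Vbeta6 chains are known for their reactivity with Mls-1a, a superantigen of an endogenous mammary tumour virus that deletes thymocytes bearing them in the mice that carry it, and they are frequent among mucosal-associated invariant T (MAIT) cells. RefSeq's annotation of GRCm38, the assembly of the mm10 build, places Trbv19, with the synonym Tcrb-V6, on chromosome 6 from 41178589 to 41179048 as a V segment. The D and J segments lie downstream on the same chromosome, from Trbd1 at 41533201 to Trbj2-7, which ends at 41543856.

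The segment ends that meet in a TRBV19 junction are shown first, because the results on junctions and on the fifth CDR3 residue are read against them. They were read from the tables, as the V letters most often matched in full and the longest D matches. V letters are in lower case and D letters in capitals.
TRBV19 from the conserved cysteine codon: tgtgccagcagtatag
TRBD1: GGGACAGGGGGC
TRBD2: GGGACTGGGGGGGC
The D letters have the lengths of the RefSeq segments, 12 and 14 bases. The V letters encode the residues CASS followed by isoleucine, and the last of their 16 bases opens the next codon. TRBV19 clonotypes kept 13.2 ± 0.0568 of these V bases on average (SD, n = 10 libraries), and 15.6% ± 1.15 kept all of them. Some 6.59 ± 0.0529 D bases were matched per clonotype with a D match. The positions of matches are those of the deposited tables, and TRBJ1-6, whose name the tables do not use, was left out of every value that needs the J position.

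One pair of libraries is named ahead of the results, since every comparison of the groups holds both of its members. CNS4KO library 5 and CNS4Flox library 3 had 64 TRBV19 nucleotide clonotypes in common, more than any other pair. The group differences in TRBV19 use, diversity and sharing are given below with the pair and without it or a member of it.

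TRBV19 was the second most used V gene in these libraries, after TRBV31, and its use did not differ past the threshold between CNS4KO and CNS4Flox. It held 7.57%, 8.75%, 7.63%, 5.08% and 8.52% of the TRB counts in CNS4KO libraries 1 to 5. It held 6.86%, 7.12%, 6.18%, 7.99% and 7.98% in CNS4Flox libraries 1 to 5. The ranges of the groups overlapped over most of their width, and CNS4KO library 4 was the lowest of all. In counts that derive from RNA, as here, fewer cells that carry a receptor and less receptor RNA per cell cannot be told apart.

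The mean share was 7.51% ± 1.46 in CNS4KO libraries and 7.23% ± 0.772 in CNS4Flox ones (SD, n = 5 each), a log2 fold change of 0.06 (SE 0.13, edgeR's quasi-likelihood test, adjusted p = 0.791 over 22 TRBV genes). Of the 22 genes 0 passed in edgeR (0%), 1 had an unadjusted p under 0.05, and 1 passed in DESeq2. Counting each distinct clonotype once, TRBV19 held 7.32% ± 1.12 of TRB clonotypes in CNS4KO libraries and 7.15% ± 0.684 in CNS4Flox ones (SD, n = 5 each; log2 fold change 0.04, edgeR adjusted p = 0.795), in a comparison where 13.6% of the V genes passed. The log2 fold change by counts was -0.0048 without CNS4KO library 2 (edgeR adjusted p = 0.997) and -0.05 without CNS4KO library 5 and CNS4Flox library 3 (edgeR adjusted p = 0.896). Over all alternatives the edgeR or DESeq2 adjusted p ran from 0.270 to 0.997.

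TRBV31 held 12.8% of TRB counts on average (range 9.63% to 16.5% over 10 libraries), a range wholly above that of TRBV19. TRBV26, the next below, held 5.96% (range 4.98% to 7.93%), which overlaps the TRBV19 range of 5.08% to 8.75%. The V genes whose share of TRB counts moved most like that of TRBV19 over the 10 libraries were TRBV31 (Pearson r = 0.704), TRBV23 (r = 0.551) and TRBV24 (r = 0.545). These are descriptions over 10 libraries, and shares of a single total constrain each other. The V genes known for Mls-1a reactivity besides TRBV19 are TRBV29 (Vbeta7), TRBV13-3 (Vbeta8.1) and TRBV17 (Vbeta9). Of these 4 genes 0 passed in edgeR, 0 had an unadjusted p under 0.05, and 0 passed in DESeq2. TRBV19 had a higher fitted share of counts in CNS4KO, and the other 3 had lower ones. The median log2 fold change was -0.09 over the list and -0.04 over all 22 genes.

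TRBV19 receptors of CNS4KO libraries were less diverse at equal counts than those of CNS4Flox libraries. At 1486 TRBV19 counts, the smallest total of a library, the expected number of distinct clonotypes was 959, 982, 1016, 986 and 1163 in CNS4KO libraries 1 to 5. It was 1258, 1257, 1177, 1221 and 1228 in CNS4Flox libraries 1 to 5. Every CNS4KO library lay below every CNS4Flox library, with CNS4KO library 5 and CNS4Flox library 3 closest to each other.

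The mean richness was 1021 ± 82.0 in CNS4KO libraries and 1228 ± 33.1 in CNS4Flox ones (SD, n = 5 each), a difference of -207 (two-sided exact permutation p = 0.00794, adjusted p = 0.0265 over 10 values). Shannon entropy with the natural logarithm, an index that also weighs evenness, was 6.60 ± 0.175 against 7.02 ± 0.0467 (SD, n = 5 each; exact permutation p = 0.00794, adjusted p = 0.0265). Again no CNS4KO library reached the range of CNS4Flox. The p of 0.00794 is the smallest that the 252 assignments of 10 libraries to the groups allow.

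The lower richness was not a feature of TRBV19 alone. Brought to equal counts gene by gene, 16 of 22 TRBV genes (72.7%) had every CNS4KO library below every CNS4Flox library. The CNS4KO to CNS4Flox ratio of mean richness was 0.832 for TRBV19, eighth from the lowest among 22 genes with a median of 0.859 and a range of 0.692 to 0.936. Each gene was taken at its own smallest total, from 80 counts for TRBV24 to 2467 for TRBV31, with 1486 for TRBV19. The ratios and their order therefore compare genes at unlike depths.

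**Figure D1:**
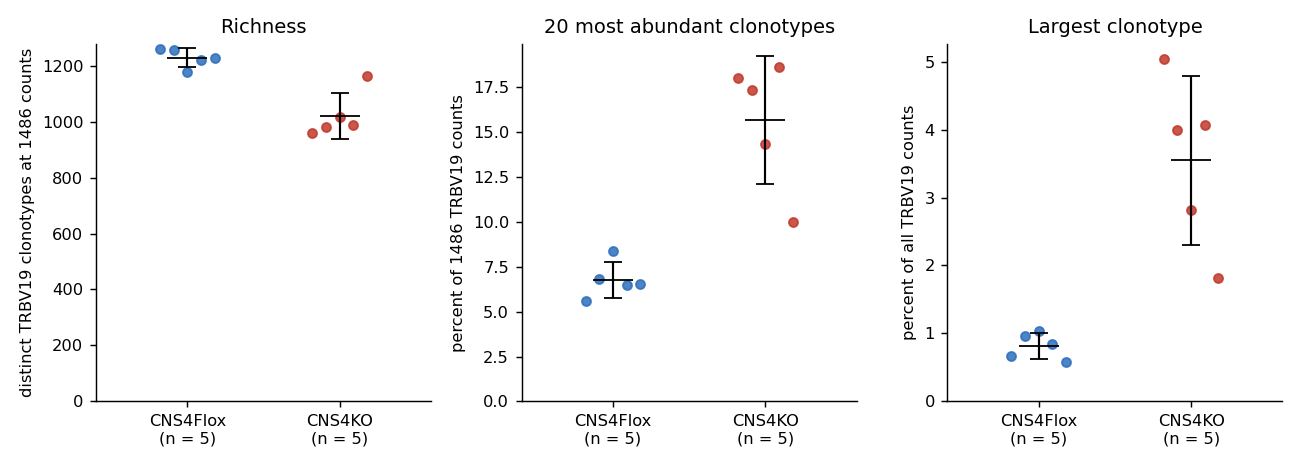
Distinct TRBV19 clonotypes expected at 1486 counts, the percent of 1486 counts held by the 20 most abundant clonotypes, and the percent of all TRBV19 counts held by the largest clonotype. Each point is 1 library, bars are the mean and SD of 5 libraries per group, and in all 3 panels the points of CNS4KO and CNS4Flox do not overlap.

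The most abundant TRBV19 clonotypes took a larger share in CNS4KO. At 1486 counts the 20 most abundant held 18.0%, 17.3%, 14.3%, 18.6% and 10% in CNS4KO libraries 1 to 5. They held 5.59%, 6.83%, 8.35%, 6.50% and 6.56% in CNS4Flox libraries 1 to 5. No CNS4Flox library reached the lowest CNS4KO library, which was again library 5.

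The means were 15.7% ± 3.57 and 6.77% ± 1.005 (SD, n = 5 each), a difference of 8.90 percentage points (two-sided exact permutation p = 0.00794, adjusted p = 0.0265). For richness, entropy and this share, leaving out CNS4Flox library 1, 2, 4 or 5 gave an adjusted p of 0.0529, with differences of -199, -200, -209 and -207 clonotypes and of 8.60, 8.91, 8.83 and 8.84 percentage points in that order. With clonotypes of count 1 left out, the richness difference was 5.17 clonotypes in the other direction (exact permutation p = 0.778, adjusted p = 0.873), and the share kept its direction at 10.8 points (adjusted p = 0.0794). Over all alternatives the adjusted p ran from 0.0265 to 0.873 for richness, to 0.357 for entropy and to 0.0794 for the share. Such clonotypes made up 75.7% ± 2.87 of TRBV19 clonotypes in CNS4KO libraries and 83.3% ± 2.43 in CNS4Flox ones (SD, n = 5 each).

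The largest TRBV19 clonotype of each library is printed here to show which receptors these shares stand for. Each line gives the library, the J gene and the CDR3 bases, with the stretch between the V and J matches (D and inserted bases) in capitals.
CNS4KO 1 TRBJ2-1: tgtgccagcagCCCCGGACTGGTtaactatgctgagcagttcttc
CNS4KO 2 TRBJ2-2: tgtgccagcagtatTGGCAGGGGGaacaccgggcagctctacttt
CNS4KO 3 TRBJ2-1: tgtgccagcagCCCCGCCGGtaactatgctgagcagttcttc
CNS4KO 4 TRBJ1-4: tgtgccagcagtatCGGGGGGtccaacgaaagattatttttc
CNS4KO 5 TRBJ2-1: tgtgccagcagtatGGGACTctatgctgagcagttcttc
CNS4Flox 1 TRBJ1-6: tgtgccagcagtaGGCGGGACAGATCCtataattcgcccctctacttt
CNS4Flox 2 TRBJ2-5: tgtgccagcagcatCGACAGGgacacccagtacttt
CNS4Flox 3 TRBJ1-1: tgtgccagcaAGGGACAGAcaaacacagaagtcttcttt
CNS4Flox 4 TRBJ1-2: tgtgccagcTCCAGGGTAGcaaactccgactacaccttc
CNS4Flox 5 TRBJ1-3: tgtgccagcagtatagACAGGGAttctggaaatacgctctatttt
For the TRBJ1-6 line the J start was taken from the 21 most frequent letters at the ends of 6821 TRB clonotypes with that J, since the deposited position belongs to another J name.

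The largest clonotype held 103, 67, 54, 72 and 50 counts in CNS4KO libraries 1 to 5, which was 5.04%, 3.99%, 2.81%, 4.07% and 1.82% of the TRBV19 counts. In CNS4Flox libraries 1 to 5 it held 10, 21, 21, 14 and 10 counts, or 0.673%, 0.956%, 1.03%, 0.840% and 0.582%. The groups did not overlap, and the means were 3.55% ± 1.25 and 0.816% ± 0.188 (SD, n = 5 each). This share was not tested apart from that of the 20 most abundant, of which it is a component. Among all TRB clonotypes of its library the largest TRBV19 clonotype ranked between second and thirteenth, second in CNS4KO libraries 2 and 5 and thirteenth in CNS4Flox library 3.

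The 5 largest CNS4KO clonotypes were each confined to their own library as nucleotide sequences among these libraries, and none of their amino acid sequences occurred in another one. Most TRBV19 receptors of any size were in 1 library, at 12878 of 13336 nucleotide sequences and 89.1% of amino acid clonotypes. In CNS4Flox, the largest clonotype of library 3 was found in 1 other library with 6 counts. That library was CNS4KO library 5, its partner in the pair named above. The largest clonotype of CNS4Flox library 5 was found in 1 other library with 2 counts. TRBJ2-1 was the J gene of 3 of the 5 largest CNS4KO clonotypes (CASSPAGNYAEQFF in library 3, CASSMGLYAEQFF in library 5 and the 15-residue CDR3 of library 1), and of 0 of the 5 in CNS4Flox. Among all TRBV19 clonotypes TRBJ2-1 was at 12.1% in CNS4KO libraries and 12.4% in CNS4Flox ones. The difference among these 5 clonotypes per group was not tested.

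**Figure D2:**
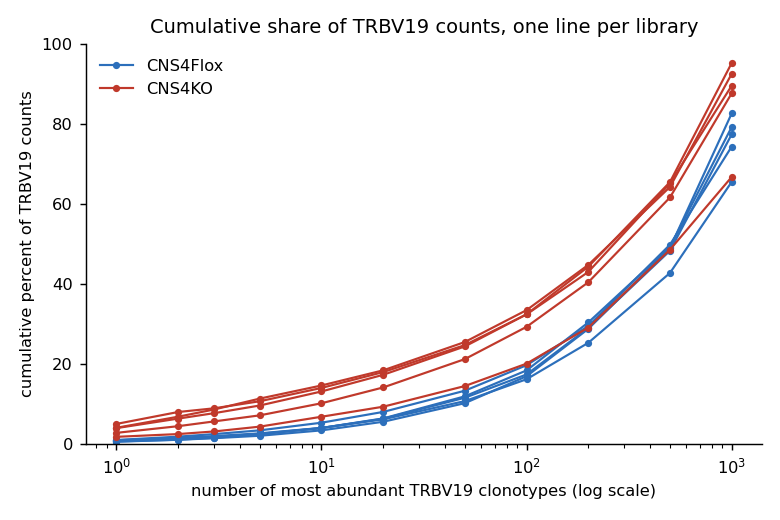
Cumulative percent of TRBV19 counts (y) held by the given number of most abundant clonotypes (x, log scale) in each of 10 libraries at full depth, coloured by group. The lines start at 1.82% to 5.04% in CNS4KO and 0.582% to 1.03% in CNS4Flox, and at 100 clonotypes reach 20.1% to 33.5% and 16.2% to 19.7%; from 200 clonotypes on, the line of CNS4KO library 5 runs among those of CNS4Flox.

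Clonotypes with 10 or more counts numbered 49 in CNS4KO, 8 to 12 per library, and 10 in CNS4Flox, 1 to 4 per library. They held 11.7% ± 3.26 of a library's TRBV19 counts in CNS4KO libraries and 1.42% ± 1.05 in CNS4Flox ones (SD, n = 5 each), at library totals of 1680 to 2750 and 1486 to 2196 counts. The groups did not overlap in this number or share, although depth was not equal. Of the 49 in CNS4KO, 11 used TRBJ2-1 and 10 used TRBJ2-7, or 22.4% and 20.4%, against 11.8% and 18.3% of the clonotypes with a count of 1 in CNS4KO. Of the 10 in CNS4Flox, 1 used TRBJ2-1 and 0 used TRBJ2-7, against 12.1% and 18.3% of the clonotypes with a count of 1 there. The 49 carried 3.15 inserted bases on average, against 3.17 for clonotypes of count 1. Among all TRBV19 nucleotide sequences, 12878 of 13336 occurred in 1 library only. As nucleotide sequences 1 of the 49 was found in another library, as were 3 of the 10 in CNS4Flox, and these small counts were not tested. The 3 include the largest clonotype of CNS4Flox library 3, which was shared with CNS4KO library 5 of the pair named above.

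The J genes paired with TRBV19 were set against those of the other TRB clonotypes of the same library. TRBJ1 genes lie behind TRBD1 and TRBJ2 genes behind TRBD2, and TRBD1 can join to a J gene of either cluster. TRBV19 clonotypes used the TRBJ2 cluster less than other clonotypes did in all 10 libraries. The TRBJ2 share of TRBV19 clonotypes was 66.5%, 62.4%, 65.4%, 67.8% and 66.8% in CNS4KO libraries 1 to 5, where other TRB clonotypes had 67.6% to 69.5%. It was 66.5%, 69.8%, 66.1%, 66.3% and 64.6% in CNS4Flox libraries 1 to 5, where the others had 66.97% to 70.2%.

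The difference was -2.33 percentage points on average (range -7.09 to -0.422, lower in 10 of 10 libraries; two-sided exact sign-flip permutation p = 0.00195, adjusted p = 0.00684 over 7 values). The p is the smallest that 1024 sign flips allow. Weighted by count the difference was -1.99 points (adjusted p = 0.0684, the highest of the alternatives, which began at 0.00911). Between the groups the TRBJ2 share of TRBV19 clonotypes was 65.8% ± 2.08 and 66.6% ± 1.91 (SD, n = 5 each), with overlapping ranges (exact permutation p = 0.532, adjusted p = 0.603).

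By single J genes, TRBV19 clonotypes carried more TRBJ1-3, TRBJ1-4, TRBJ1-6 and TRBJ2-1 and less TRBJ2-4 and TRBJ2-7 than other TRB clonotypes. TRBJ2-1 was at 12.3% ± 0.876 against 10.3% ± 0.307 (SD, n = 10 libraries), 1.97 points higher on average and higher in 10 of 10 libraries. TRBJ1-3 was at 6.66% ± 0.605 against 5.44% ± 0.308 and TRBJ1-6 at 4.66% ± 0.631 against 3.46% ± 0.171 (SD, n = 10), each higher in 10 of 10 libraries. TRBJ1-4 was 0.856 points higher, in 9 of 10 libraries.

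TRBJ2-7, the most used J gene, was at 17.6% ± 1.13 of TRBV19 clonotypes against 19.8% ± 0.890 (SD, n = 10), lower in 10 of 10 libraries by 2.22 points on average. TRBJ2-4 was at 10.1% ± 1.04 against 11.9% ± 0.489 (SD, n = 10), lower in 9 of 10. The exact sign-flip permutation test gave an adjusted p of 0.00417 for TRBJ1-3, TRBJ1-6, TRBJ2-1 and TRBJ2-7, of 0.00781 for TRBJ2-4 and of 0.0174 for TRBJ1-4. The adjustment was over 32 values, 12 J genes and 20 residues, a set of tests added after the data were seen. TRBJ1-1, TRBJ1-2, TRBJ1-5, TRBJ2-2, TRBJ2-3 and TRBJ2-5 did not pass (adjusted p from 0.0842 to 0.885).

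**Figure D3:**
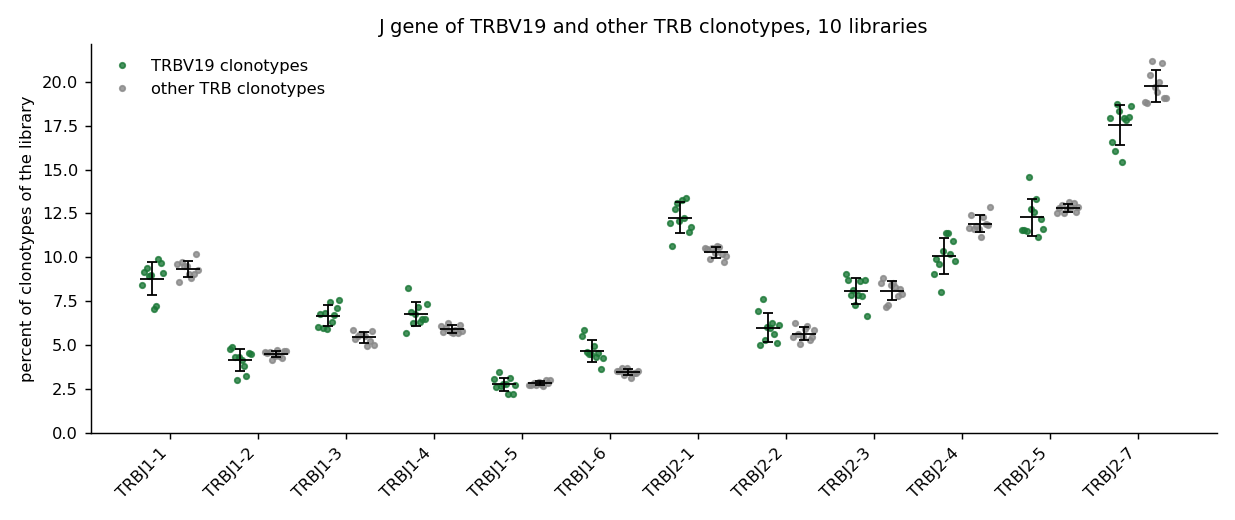
Percent of distinct clonotypes (y) that carry each of the 12 TRBJ genes (x) among TRBV19 clonotypes and among all other TRB clonotypes. Each point is 1 of 10 libraries and bars are mean and SD; TRBJ2-1 stands at 12.3% against 10.3% and TRBJ2-7 at 17.6% against 19.8%.

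No J pair of TRBV19 passed the threshold when the groups were compared. In edgeR 0 of 12 pairs passed an adjusted p of 0.05, where 0.395% of the 253 V-J pairs tested did, with 0 of the 12 and 22 of the 253 at an unadjusted p under 0.05 and 0 of the 12 past the threshold in DESeq2. Groups that did not overlap in the share of TRB counts occurred in 0 of the 12 pairs and in 1.19% of all pairs. The log2 fold changes of the 12 pairs were higher than 0 for 8 and lower for 4, with a median of 0.09 against -0.05 over all pairs. The signs of TRBJ1-1, TRBJ1-4, TRBJ2-1, TRBJ2-5 and TRBJ2-7 turned under at least 1 alternative.

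The largest fold change belonged to TRBJ2-2, whose pair with TRBV19 took 0.564% ± 0.255 of the TRB counts of CNS4KO libraries against 0.440% ± 0.0350 of those of CNS4Flox (SD, n = 5 each; log2 fold change 0.34, SE 0.24, edgeR adjusted p = 0.757). Without CNS4KO library 2 it was 0.09, and those of TRBJ2-1 and TRBJ1-5 were 0.33 each. TRBJ2-1 held 1.08% ± 0.309 against 0.913% ± 0.0636 (SD, n = 5 each; log2 fold change 0.25, edgeR adjusted p = 0.757). By distinct clonotypes the TRBJ2-1 log2 fold change was -0.00044 (edgeR adjusted p = 0.999). TRBJ2-4 had 0.681% ± 0.191 and 0.782% ± 0.122 (SD, n = 5 each; log2 fold change -0.20, edgeR adjusted p = 0.836), and TRBJ1-3 0.463% ± 0.113 and 0.523% ± 0.0997 (log2 fold change -0.18, edgeR adjusted p = 0.852). The spread between CNS4KO libraries was wider than between CNS4Flox libraries for each of these 4 pairs. The remaining 8 pairs had log2 fold changes between -0.10 and 0.27 and edgeR adjusted p from 0.757 to 0.976.

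The D segment named for a TRBV19 clonotype followed the J cluster. Among TRBJ1 clonotypes TRBD1 was named in 86.5% ± 0.950 and TRBD2 in 9.65% ± 0.892 (SD, n = 10 libraries). Among TRBJ2 clonotypes the shares were 51.0% ± 1.48 and 46.4% ± 1.78 (SD, n = 10). A TRBD2 to TRBJ1 join is not made by deletion in the order in which the segments lie, and the D letters share long runs of G, so these names are not certain for short matches.

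The mean CDR3 length of TRBV19 clonotypes did not differ past the threshold between the groups or from that of other TRB clonotypes. It was 13.73, 13.67, 13.77, 13.72 and 13.66 residues in CNS4KO libraries 1 to 5 and 13.73, 13.71, 13.75, 13.71 and 13.71 in CNS4Flox libraries 1 to 5. The groups overlapped, with means of 13.71 ± 0.0449 and 13.72 ± 0.0183 (SD, n = 5 each; exact permutation p = 0.603, adjusted p = 0.603). Over all libraries lengths ran from 8 to 19 residues with a median of 14, and 89.2% of clonotypes had 12 to 15.

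Against other TRB clonotypes of the same library the difference was -0.0102 residues, lower in 5 of 10 libraries (exact sign-flip permutation p = 0.312, adjusted p = 0.501). With clonotypes of count 1 left out it was 0.112 residues (adjusted p = 0.0137), and weighted by count 0.0465 residues (adjusted p = 0.0456), both in the other direction; the adjusted p ran from 0.0137 to 0.837 over the alternatives. The length followed the J gene. TRBV19 clonotypes with TRBJ2-2 averaged 14.3 ± 0.111 residues and those with TRBJ1-1 averaged 13.2 ± 0.0882 (SD, n = 10 libraries), and the ranges of these J genes, 14.1 to 14.5 and 13.2 to 13.4, did not overlap.

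**Figure D4:**
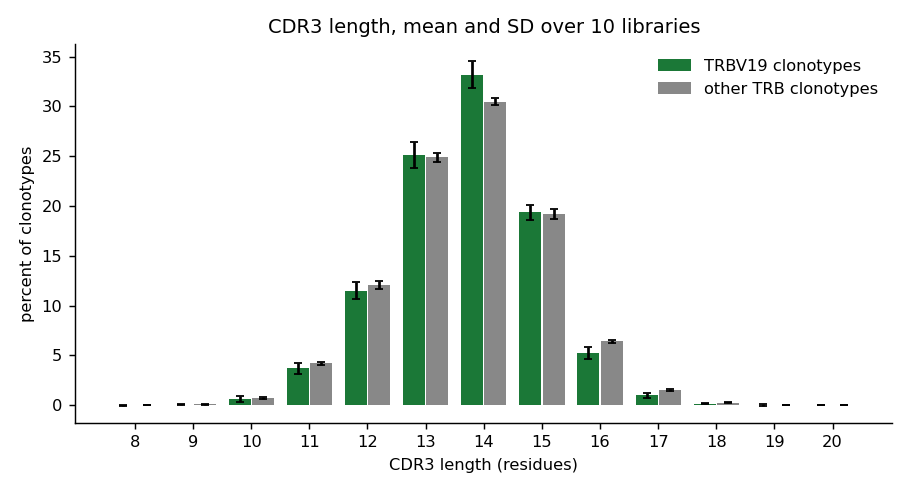
Percent of distinct clonotypes (y) by CDR3 length in residues (x) for TRBV19 and other TRB clonotypes, as mean and SD (bars and error bars) over 10 libraries. Both peak at 14 residues, at which TRBV19 held 33.2% ± 1.34.

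TRBV19 junctions without any inserted base were rarer than in other beta chains. They made up 8.03%, 9.93%, 8.47%, 9.25% and 8.81% of TRBV19 clonotypes in CNS4KO libraries 1 to 5, against 9.29% to 10.6% of other TRB clonotypes. In CNS4Flox libraries 1 to 5 they made up 8.95%, 8.15%, 8.53%, 9.18% and 8.35%, against 8.89% to 9.46%. In each library TRBV19 was the lower of the pair.

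The difference was -0.860 percentage points (range -1.38 to -0.169, lower in 10 of 10 libraries; exact sign-flip permutation p = 0.00195, adjusted p = 0.00684). It was -2.10 points with clonotypes of count 1 left out and -1.29 points weighted by count (adjusted p = 0.0137 each). Mean inserted bases were 3.17 ± 0.0531 in TRBV19 and 3.11 ± 0.0423 in other TRB clonotypes (SD, n = 10), higher in 9 of 10 libraries, which did not pass after adjustment (exact sign-flip permutation p = 0.0352, adjusted p = 0.0820). Without CNS4KO library 1, the single library with a lower value, the difference moved from 0.0582 to 0.0775 bases (adjusted p = 0.00911; 0.00911 to 0.164 over the alternatives). Between V and D 1.47 ± 0.0445 bases were inserted and between D and J 1.75 ± 0.0487 (SD, n = 10 libraries, clonotypes with a D match).

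Between CNS4KO and CNS4Flox the insertion values of TRBV19 overlapped. Mean inserted bases were 3.14 ± 0.0616 and 3.19 ± 0.0372 (SD, n = 5 each; exact permutation p = 0.254, adjusted p = 0.508), and junctions without insertion 8.90% ± 0.731 and 8.63% ± 0.423 (SD, n = 5 each; exact permutation p = 0.532, adjusted p = 0.603). Whether the distance of TRBV19 from other beta chains changed between the groups was tested for 7 values (length, inserted bases, junctions without insertion, TRBJ2, hydrophobic doublet, sharing and counts per clonotype), and 0 passed (exact permutation adjusted p from 0.574 to 0.881, with 0 at an unadjusted p under 0.05).

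The first 4 CDR3 residues were CASS in 84.7% ± 0.904 of TRBV19 clonotypes (SD, n = 10 libraries). The fifth residue of the CDR3, counted from the cysteine, is the last that the V letters of TRBV19 encode in full. Isoleucine, the residue its V letters encode, stood there in 43.7% ± 1.39 of TRBV19 clonotypes (SD, n = 10 libraries; range 41.7% to 46.3%). In other TRB clonotypes it stood there in 0.350% ± 0.0396. Arginine followed with 10.8% ± 0.596, proline with 9.24% ± 0.629 and methionine with 6.78% ± 0.649 (SD, n = 10), of which methionine was at 0.145% ± 0.0291 in other TRB clonotypes and arginine and proline were at 11.2% and 9.94%. A codon that keeps the first 2 V bases at that place can encode isoleucine or methionine only.

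The groups had isoleucine there in 43.8% ± 0.977 of CNS4KO and 43.6% ± 1.84 of CNS4Flox clonotypes (SD, n = 5 each), with overlapping ranges. Threonine was at 6.36% ± 0.410 (range 5.83% to 6.76%) in CNS4KO and 5.25% ± 0.477 (range 4.66% to 5.86%) in CNS4Flox (SD, n = 5 each), ranges that overlap at their ends, and was picked out after its values were seen and not tested.

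The CDR3 middle, the CDR3 without its first 4 and last 4 residues, starts at the fifth residue, so the choice of TRBV19 bears on its makeup, and the values are given as a description. Isoleucine made up 8.34% of residues in TRBV19 and 0.650% in other TRB clonotypes, and leucine 2.93% against 6.65%. Glycine, the most frequent residue, was at 21.4% ± 0.497 against 21.8% ± 0.182 (SD, n = 10).

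A pair of hydrophobic residues (F, I, L, M, V, W or Y) at positions 6 and 7 of the CDR3, a feature known to favour self-reactivity and Treg fate, was present in 1.36% ± 0.206 of TRBV19 clonotypes in CNS4KO libraries and 1.28% ± 0.205 in CNS4Flox ones (SD, n = 5 each). The libraries of the groups overlapped, at 1.07% to 1.54% and 1.08% to 1.59% (exact permutation p = 0.579, adjusted p = 0.603). Other TRB clonotypes had it at 1.33% ± 0.0610 (SD, n = 10; TRBV19 higher in 5 of 10 libraries, exact sign-flip permutation adjusted p = 0.861).

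Stretches of 3 residues in the CDR3 middle were counted over distinct clonotypes. The stretch held by most TRBV19 clonotypes was threonine-glycine-glycine (TGG), in 6.01% ± 1.02 of CNS4KO and 5.88% ± 0.572 of CNS4Flox clonotypes (SD, n = 5 each). It was followed by GTG (4.74% in each group), DWG (4.41% and 4.44%), LGG (3.77% and 4.31%) and SGN (3.72% and 4.21%). In edgeR 0 of the 108 TRBV19 stretches tested passed, against 0.686% of the 1458 V gene and stretch combinations, with 5 of the 108 and 122 of the 1458 at an unadjusted p under 0.05 and 0 of the 108 past the threshold in DESeq2. The stretches with the smallest p were IAG, with 1.17% ± 0.286 in CNS4KO libraries and 1.76% ± 0.391 in CNS4Flox ones (SD, n = 5 each; log2 fold change -0.58, edgeR adjusted p = 0.357), and GGT, with 1.26% ± 0.320 and 0.850% ± 0.304 (log2 fold change 0.56, edgeR adjusted p = 0.507).

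Most TRBV19 receptors were seen in a single library. Of 11778 amino acid clonotypes (V, J and CDR3 residues) over the 10 libraries, 10493, or 89.1%, occurred in 1 library, 941 in 2 and 237 in 3. The remaining 107 occurred in 4 to 8 libraries, and 0 in 9 or 10. As nucleotide sequences, 12878 of 13336 occurred in 1 library and 2 reached 5 libraries, the highest number.

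The most widely found receptor was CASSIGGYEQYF with TRBJ2-7, in 5 CNS4KO and 3 CNS4Flox libraries. Its nucleotide sequences are shown because no library shared one with another. Bases between the V and J matches are in capitals.
CNS4KO 1: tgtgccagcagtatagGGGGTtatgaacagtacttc
CNS4KO 2: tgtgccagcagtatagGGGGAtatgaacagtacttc
CNS4KO 3: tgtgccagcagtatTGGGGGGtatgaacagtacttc
CNS4KO 4: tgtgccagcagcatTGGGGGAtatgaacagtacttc
CNS4KO 5: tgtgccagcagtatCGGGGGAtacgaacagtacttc
CNS4Flox 2: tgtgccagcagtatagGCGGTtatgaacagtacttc
CNS4Flox 4: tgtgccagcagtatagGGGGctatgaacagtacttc
CNS4Flox 5: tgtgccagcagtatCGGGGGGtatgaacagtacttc
These 8 sequences encode the same 12 residues from 36 bases each, with 0 to 3 inserted bases. Their counts were 1, 2, 8, 1 and 1 in the CNS4KO libraries and 1, 2 and 1 in the CNS4Flox libraries. Matches to the V and J letters may hold single differences in 2 of the lines, where the caller counted such bases as V or J.

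The next most widely found receptors were in 7 or 6 libraries. A CDR3 of 15 residues that starts with CASSILG (TRBJ2-2) was in 7 libraries from 4 nucleotide sequences, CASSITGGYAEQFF (TRBJ2-1) in 7 from 5, and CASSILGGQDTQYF (TRBJ2-5) in 7 from 7. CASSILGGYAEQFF (TRBJ2-1) was in 6 libraries from 6 sequences and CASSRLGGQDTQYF (TRBJ2-5) in 6 from 8, and these are the 2 with the highest mean share of TRB counts among 11 clonotypes found in 6 libraries. None of these 6 exceeded 8 counts in a library.

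Between the groups 0 of the 43 TRBV19 amino acid clonotypes found in at least 5 libraries passed in edgeR, with 3 at an unadjusted p under 0.05 and 0 in DESeq2; of all 666 TRB clonotypes tested 0 passed (0%), with 37 at an unadjusted p under 0.05. The smallest p belonged to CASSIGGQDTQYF (TRBJ2-5) and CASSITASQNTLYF (TRBJ2-4), each with 8 counts over the 5 CNS4Flox libraries and found in all 5 of them. Each had 0 counts in CNS4KO, which allows a share of up to 0.00217% of the 138465 TRB counts of the group (3 counts), against 0.00626% in CNS4Flox. Both passed the filter of at least 5 libraries only through CNS4Flox and were picked by their p, so these values are a description. These limits cover counting error only, and counts taken after amplification may not be independent molecules.

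Receptors found in more than 1 library carried fewer inserted bases. Amino acid clonotypes that recurred in another library had 1.89 ± 0.107 inserted bases, and those found in no other library 3.57 ± 0.0797 (SD, n = 10 libraries), with ranges of 1.74 to 2.07 and 3.43 to 3.67 that did not overlap. They had no inserted base in 19.6% ± 2.20 against 5.35% ± 0.473 of cases, and started with CASSI, the residues of the untrimmed V gene, in 59.8% ± 2.67 against 37.9% ± 1.38 (SD, n = 10). In clonotypes of 4 or more libraries the share that started with CASSI was 80.3% ± 7.38 and the mean of inserted bases 1.40 ± 0.154 (SD, n = 10). Recurring clonotypes had 1.41 ± 0.155 counts each on average, and those of a single library 1.40 ± 0.196 (SD, n = 10). By group the order differed, with 1.52 ± 0.0306 against 1.57 ± 0.111 in CNS4KO libraries. In CNS4Flox libraries the values were 1.30 ± 0.151 against 1.23 ± 0.0349 (SD, n = 5 each). These values describe classes chosen by sharing and were not tested.

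At equal counts 20.7% ± 1.07 of the TRBV19 amino acid clonotypes of a CNS4KO library and 20.1% ± 1.78 of a CNS4Flox library were found in at least 1 other library (SD, n = 5 each; exact permutation p = 0.587, adjusted p = 0.603). The ranges, 19.4% to 21.5% and 18.8% to 22.5%, overlapped, and the highest value was that of CNS4Flox library 3. The group difference was 0.531 percentage points with all libraries. It was 0.885 points without CNS4KO library 5 (exact permutation adjusted p = 0.651) and 0.766 points without CNS4Flox library 3 (exact permutation adjusted p = 0.476).

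The Morisita-Horn index, which is 0 for repertoires without a shared clonotype and 1 for identical ones and weighs abundant clonotypes most, averaged 0.0117 among the 10 CNS4KO pairs, 0.0356 among the 10 CNS4Flox pairs and 0.0180 between the groups. Without CNS4KO library 5 against CNS4Flox library 3, the mean between the groups was 0.0162. CNS4KO pairs ranged from 0.00600 to 0.0181 and CNS4Flox pairs from 0.0228 to 0.0465, so the lowest CNS4Flox pair lay above the highest CNS4KO pair. The difference of -0.0239 did not pass after adjustment (exact permutation over libraries p = 0.0317, adjusted p = 0.0794), and did without CNS4KO library 5 (-0.0251, adjusted p = 0.0397) or without CNS4Flox library 3 (-0.0244, adjusted p = 0.0397). With the Jaccard index, which ignores abundance, it was -0.00155 (adjusted p = 0.603), and the adjusted p ran from 0.0397 to 0.603 over the alternatives. The abundant clonotypes held more of the CNS4KO counts, as given above, and the part of this in the index was not tested.

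The pair named at the start stood apart from all others. The 64 TRBV19 nucleotide clonotypes common to CNS4KO library 5 and CNS4Flox library 3 compare with 5 to 26 in each of the 44 remaining pairs, and the index of 0.0624 was the highest of the 45. Of 61 shared clonotypes with an inserted base value, 53 were in no other library. Their mean of inserted bases was 2.46, against 0.545 to 2.30 in the other 44 pairs. In this pair 10 shared clonotypes had 5 or more inserted bases, all 10 in no other library, against at most 2 in any other pair. The 1 with most inserted bases, 8 by the match positions, and the 1 with most counts among those with 5 are printed to show letters that both libraries held. Capitals mark the bases between V and J.
TRBJ2-2, 8 bases between the matches: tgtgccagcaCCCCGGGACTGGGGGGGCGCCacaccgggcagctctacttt
TRBJ2-5, 5 inserted bases: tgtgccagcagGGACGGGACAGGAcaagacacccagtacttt
In the first, the base after the D match continues the D letters printed above, though it does not lie beside J, and the caller's positions count it as inserted. The first had 2 counts in each library of the pair, and the second (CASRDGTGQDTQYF) 2 in CNS4KO library 5 and 3 in CNS4Flox library 3. The source of the shared sequences was not tested.

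Without both libraries of this pair the TRBV19 richness differed by -255 clonotypes, the entropy by -0.504 and the share of the 20 most abundant by 10.7 percentage points, each wider than with them. Groups of 4 cannot give an exact permutation p below 0.0286, and the adjusted p was 0.0714 for each.

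**Figure D5:**
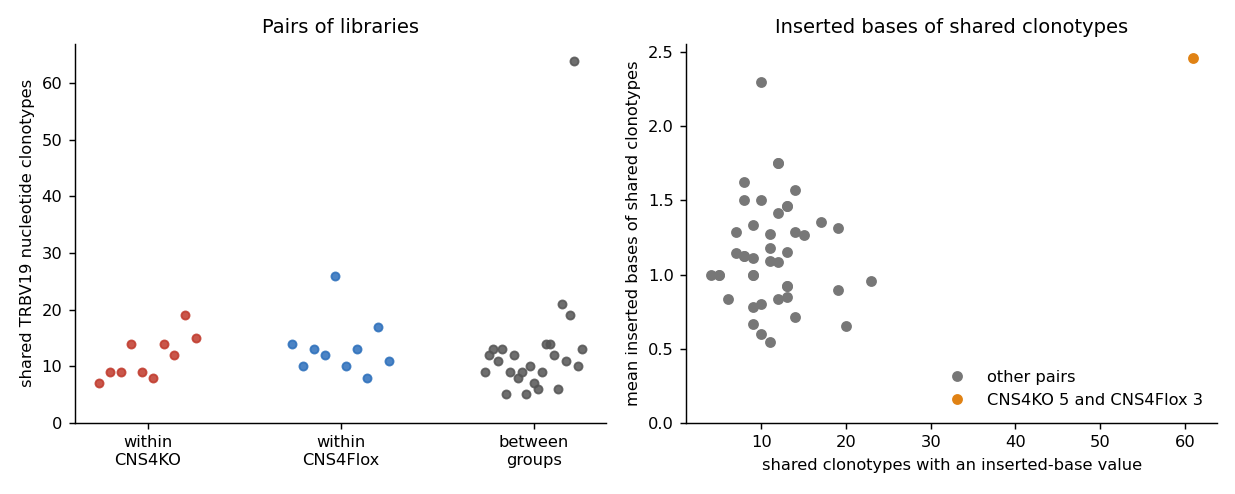
Left, TRBV19 nucleotide clonotypes shared (y) by each pair of libraries, by kind of pair (x); right, mean inserted bases of the shared clonotypes (y) against their number (x), TRBJ1-6 left out. Each point is 1 pair, and CNS4KO library 5 with CNS4Flox library 3 lies apart at 64 shared clonotypes and, on the right, at 61 with 2.46 inserted bases.

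The depth behind these values was 1680 to 2750 TRBV19 counts per library in CNS4KO and 1486 to 2196 in CNS4Flox, from 19199 to 34833 TRB counts and 61793 to 95853 counts of both chains. A TRBV19 clonotype had 1.56 ± 0.0882 counts on average in CNS4KO libraries and 1.25 ± 0.0568 in CNS4Flox ones (SD, n = 5 each), and other TRB clonotypes had 1.53 ± 0.144 and 1.24 ± 0.0724 (SD, n = 5 each). TRBV19 was higher than the other beta chains in 7 of 10 libraries (exact sign-flip permutation p = 0.430, adjusted p = 0.501).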

How the data were processed

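TCR transcripts of splenic Treg cells were sequenced in 10 libraries. Per the labels' protocols, chain-specific primers and template switching were used for cDNA, followed by amplification. The deposited counts are whole numbers per clonotype, and the deposited fraction is the count divided by the total of the library, per the file headers; the sources used here name no caller and do not say whether counts are reads or molecules. The genome build was mm10, per the submitters' processing notes. Fractions, V, D and J names and match positions are as deposited.

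A clonotype was a V gene, J gene and CDR3 nucleotide sequence. J genes were set by the CDR3 end where it is unique, which puts 640 TRBV19 entries at TRBJ1-6 (632 named TRBJ2-5). Inserted bases lie between the V, D and J matches; D matches never reached the base beside J, and that base was given to D where it continued the D letters, with the positions as deposited added as an alternative after the data were seen. Libraries were thinned to 1486 TRBV19 counts (19199 TRB counts for comparisons of sharing with other TRB), as expectations for richness or means of 20 draws. The quasi-likelihood test of edgeR was run on counts, with the TRB total as library size and no TMM factors (distinct clonotypes for 3-residue stretches), for features with at least 10 counts in at least 5 libraries, or clonotypes in at least 5 libraries, adjusted by Benjamini-Hochberg over all features tested. DESeq2 was an alternative. Other values used two-sided exact permutation tests over libraries, or exact sign flips within libraries, adjusted over 10, 7, 7 and, added after the data were seen, 32 values. The tests were checked on simulated data. Replicates were numbered in accession order and pair no libraries.

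Named items were TRBV19 and its 12 J pairs, the 3 V genes most like it, the Mls-1a list, the 6 clonotypes in most libraries (ties by mean share), the largest of each library, the 2 clonotypes and 2 stretches with the smallest p (none passed) and the 5 most frequent stretches. Members and lists were chosen with earlier results of these data known. R 4.3.3 ran edgeR 4.0.16 and DESeq2 1.42.0, and Python 3.11.15 ran scipy 1.17.1, pandas 2.3.3, numpy 2.4.6 and matplotlib 3.10.9.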

Additional observations from a re-analysis of the deposited data

Results flagged for a closer look

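In 54 groups of 5 libraries examined for a library far from the other 4, which chance gives in about 1 of 20 groups, 3 such libraries were found. CNS4KO library 4 had TRBV19 in 5.39% of its TRB clonotypes, below the 7.52% to 8.30% of the other 4 CNS4KO libraries. CNS4KO library 5 had an expected 1163 TRBV19 clonotypes at equal counts, above the 959 to 1016 of the other 4. CNS4Flox library 1 had TRBJ2-7 in 15.4% of its TRBV19 clonotypes, below the 17.9% to 18.7% of the other 4. Of the entries named TRBV19, 150 (1.07%, with 201 counts) had no beta chain J end and were left out of all comparisons.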

How the results depend on the processing

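Of 638 values recomputed under alternatives for 45 results, 562 kept their direction and side of the threshold, 21 fell short of it, 6 newly passed it and 49 changed sign, mostly around differences near 0; causes were not tested. No paired analysis was possible because the labels give no replicate numbers and nothing in the labels pairs libraries across the groups.

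Without clonotypes of count 1, and at the lower equal depth that this leaves, the differences between the groups were 5.17 for richness, -0.205 for entropy (adjusted p = 0.357) and 10.8 points for the 20 most abundant. TRBV19 then differed from other TRB by 0.112 residues, 0.133 inserted bases (adjusted p = 0.0492), 0.0936 points of the hydrophobic doublet, -1.36 points of sharing and 0.134 counts per clonotype (adjusted p = 0.0308), and the group differences of that distance were 0.989 points without insertion, 0.617 of TRBJ2, 0.901 of sharing, 0.731 of the doublet (adjusted p = 0.361) and 0.238 counts per clonotype (adjusted p = 0.0556). At full depth, where libraries differ in depth, richness differed by -139 (adjusted p = 0.670), entropy by -0.373 (adjusted p = 0.132) and the share of the 20 most abundant by 8.94 points (adjusted p = 0.0794). Weighted by count, the groups differed by 0.0345 residues, 0.0226 inserted bases and -0.124 points without insertion. TRBV19 then differed from other TRB by 0.0465 residues, 0.0922 inserted bases (adjusted p = 0.0456), -1.99 points of TRBJ2 and 0.0397 of the doublet, and the group differences of that distance were 0.0470 residues, 0.0553 inserted bases and 0.914 points of TRBJ2.

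On the log2 scale, TRBJ1-1 was at 0.018 in DESeq2, 0.021 with TMM and 0.0999 by distinct clonotypes, where TRBJ2-1 was at -0.00044 and TRBJ2-5 at 0.0503. TRBJ2-7 was at -0.0505 with the TRBV19 total as library size. Without CNS4KO library 5 and CNS4Flox library 3 together, richness differed by -255, entropy by -0.504, the share of the 20 most abundant by 10.7 points, length by 0.00758 residues, the group differences of the distance from other TRB were -0.0303 points of the doublet and -0.834 of TRBJ2, and log2 fold changes were -0.0456 for TRBV19 counts, -0.0609 for distinct clonotypes and -0.13 for TRBJ2-7.

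With 1 library left out at a time, differences ran from -242 to -191 for richness, -0.485 to -0.379 for entropy and 8.16 to 10.3 points for the 20 most abundant (adjusted p 0.0265 to 0.0529 each), from -0.0259 to 0.000796 residues for length and from -0.0265 to -0.0211 for the overlap of pairs. Against other TRB they ran from 0.0490 to 0.0775 inserted bases, -0.0394 to 0.0239 points of the doublet and -0.269 to 0.660 of sharing. Group differences of that distance ran from -0.779 to 0.876 points for TRBJ2, -0.00689 to 0.142 for the doublet and -0.0218 to 0.0481 counts per clonotype. Log2 fold changes ran from -0.0048 to 0.17 for TRBV19 counts, -0.015 to 0.13 for distinct clonotypes, -0.13 to 0.077 for TRBJ1-1, -0.0047 to 0.18 for TRBJ1-4 and -0.09 to 0.13 for TRBJ2-7. Depth was 1486 to 2750 TRBV19 counts per library, which limits the precision of single clonotypes. With match positions as deposited, an alternative chosen after seeing the data, inserted bases differed by -0.0442 between the groups.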

Other observations

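A small set of TRBV19 clonotypes carried V letters that depart from the usual ones at 1 place, marked by a capital, within the part that the tables assign to V.
Usual: tgtgccagcagtatag
Departing: tgtgccagcagtaCag
The departing letters were found in 87 clonotypes, 4 to 13 in each of the 10 libraries, or 0.628% of TRBV19 clonotypes. They encode threonine in place of isoleucine as the fifth residue, as in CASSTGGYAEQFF (TRBJ2-1), the third largest TRBV19 clonotype of CNS4KO library 5 with 18 counts. In all, the V part of 324 of 13848 clonotypes (2.34%) departed from the usual letters. The departing letters printed above end in ACAG, a run that also occurs in the TRBD1 letters. Whether such departures are D bases, inserted bases, sequencing errors or another allele was not tested.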
